A study of Homo sapiens with 6 samples.

Results

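The genes described here are 10 regulators of apoptosis of the BCL2 family, measured by RNA sequencing in H460 lung cancer cells with and without fluoxetine. They were picked out by gene symbol and are 10 of the 31762 genes counted. By role they are the 4 anti-apoptotic genes BCL2, BCL2L1, BCL2L2 and MCL1, the effector BAK1, and the 5 BH3-only genes BID, BAD, BCL2L11, BMF and PMAIP1. Each symbol stood for a single gene in the table, and all 10 genes had enough counts to be tested.

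The study asked how fluoxetine, an antidepressant of the serotonin reuptake inhibitor class, acts on lung cancer cells. H460 cells are a human line from a lung carcinoma of the large cell type, and the labels give their genotype as WT. The treated cells were exposed to 20 µM fluoxetine for 24 h (3 libraries), and the other 3 libraries came from control cells, for which no vehicle is named. Nothing in the labels says that the libraries of a group came from separate cultures, so the p-values below measure the spread between these libraries, which may be technical.

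BCL2 family proteins decide whether the outer membrane of mitochondria stays intact. The anti-apoptotic members bind and restrain the effectors BAX and BAK, and the BH3-only members either activate the effectors or occupy the groove of the anti-apoptotic members. Once BAX or BAK opens the membrane, cytochrome c leaves the mitochondria, the apoptosome forms and caspases are activated. In lung carcinomas, copy gains of MCL1 and BCL2L1 are recurrent. Counts of RNA per gene tell nothing of protein level, of protein modification or of splice forms, which for BCL2L1 and BCL2L11 encode proteins of different potency.

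The reads counted on genes numbered 19343565 to 27823667 per control library and 16157507 to 17113538 per fluoxetine library, so that 3 counts were worth 0.108 to 0.186 CPM, the count per 1000000 counts of the library. Levels are given in CPM after TMM scaling, and differences as log2 fold changes of fluoxetine over control with their standard error (SE). A gene was called at an adjusted p under 0.05 in the quasi-likelihood test of edgeR, adjusted by Benjamini-Hochberg over 15646 genes. Of the 5 epithelial markers, KRT8, KRT18 and KRT19 were abundant. EPCAM and CDH1 had too few counts to be tested, with CDH1 at 3 counts or fewer in every library. The 5 markers summed to 3057 to 4027 CPM in control and 2689 to 3264 CPM in fluoxetine libraries. KRT18 fell (log2 fold change -0.72, adjusted p = 0.00162 in edgeR's test). Lung lineage, leukocyte and endothelial markers each summed to 0.684 CPM or less in every library, with SFTPC, PTPRC and the 4 endothelial markers measured (PECAM1, VWF, CLDN5 and KDR) at 3 counts or fewer throughout. The fibroblast markers summed to 12.9 to 14.3 CPM in control and 16.5 to 17.4 CPM in fluoxetine libraries, with COL1A2 at 3 counts or fewer and LUM higher (0.88, adjusted p = 0.00448 in edgeR's test); the part of these differences in the results below was not tested. All libraries came from the single line H460, so these lists describe the RNA of that line and do not count cell types. In bulk RNA, a change in all cells and a change in some of them cannot be told apart.

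The sequences upstream of a start site are shown for the genes on which the results turn, namely BCL2L1 and BID, whose RNA fell, and BCL2L11, a textbook target of the FOXO transcription factors. They come from RefSeq (GRCh38.p14), which held 15 start sites of 8 of the 10 genes; BCL2L2 and MCL1 were not matched. Each run is the part of the 250 bases before a start site that lies outside annotated exons, read 5′ to 3′ on the strand of the gene, with capitals on the searched words. The words, sought on both strands, were the box known as CCAAT, the GC box written GGGCGG, the core promoter word TATAAA, the enhancer box word CACGTG, the forkhead word GTAAACA, the CRE word TGACGTCA, the word TGATGCAA of C/EBP and ATF factors, the E2F words TTTCCCGC and TTTGGCGC, the STAT word TTCCNGGAA and the ETS word CCGGAAGT.
BCL2L1 (chr20:31723990-31724213, minus strand): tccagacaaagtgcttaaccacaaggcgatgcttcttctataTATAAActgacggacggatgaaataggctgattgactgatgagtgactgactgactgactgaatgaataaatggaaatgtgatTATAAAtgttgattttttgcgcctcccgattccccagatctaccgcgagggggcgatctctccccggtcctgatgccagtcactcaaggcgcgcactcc
BID (chr22:17774043-17774292, minus strand): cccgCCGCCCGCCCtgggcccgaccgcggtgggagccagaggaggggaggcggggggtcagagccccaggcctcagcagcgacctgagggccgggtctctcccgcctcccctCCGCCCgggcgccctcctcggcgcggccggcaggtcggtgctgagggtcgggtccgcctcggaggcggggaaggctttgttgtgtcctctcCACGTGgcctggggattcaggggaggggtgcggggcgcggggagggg
BCL2L11 (chr2:111120664-111120913, plus strand): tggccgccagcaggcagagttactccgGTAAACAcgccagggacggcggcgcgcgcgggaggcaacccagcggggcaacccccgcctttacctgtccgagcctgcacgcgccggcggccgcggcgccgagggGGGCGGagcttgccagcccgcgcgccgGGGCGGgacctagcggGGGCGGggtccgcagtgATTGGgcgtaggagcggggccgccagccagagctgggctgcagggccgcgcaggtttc
The capitals mark 2 TATAAA words before BCL2L1, 3 GC boxes and 1 enhancer box word (E-box) before BID with the first pair of GC boxes overlapping, and 1 forkhead word, 3 GC boxes and 1 CCAAT box before BCL2L11. BCL2L1 was the only gene of the 8 with TATAAA, which was found in 10.7% of all 35116 windows of 250 bases in the RefSeq table. BID was the only gene with the E-box (6.34% of all windows), and BCL2L11 the only gene with the forkhead word (2.98%). GC boxes stood in 10 of the 15 windows of the 8 genes, against 42.6% of all windows. Windows of BID and of BAD overlap each other, so the same GC boxes recur in this count. By gene, 6 of the 8 had a GC box. No window of the 8 genes held TGACGTCA, TGATGCAA, TTTCCCGC, TTTGGCGC, TTCCNGGAA or CCGGAAGT, words found in 0.550% to 3.42% of all windows. The 250 bases of the start sites shown were 50% G or C for BCL2L1, 78.0% for BID and 76.8% for BCL2L11, against a median of 58.0% over all windows. The other window of BCL2L1 was 60.4% G or C and held no TATAAA. The 5 windows of BID ranged from 47.6% to 78.0%, and 2 of them held the E-box. The BID window at 47.6% held neither GC box nor E-box. A match of letters is a description and shows no binding.

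Of the 10 genes, 2 fell with fluoxetine, the anti-apoptotic BCL2L1 and the BH3-only BID, and none rose. Over all 15646 genes tested, 5.32% were called lower and 7.76% higher. The count of 0 higher was the same at an unadjusted p under 0.05 in edgeR's test (0), with DESeq2 (0, with no adjusted p for BMF) and with limma-voom (0), and each of these gave the same number lower (2). Over all 15646 genes, DESeq2 called 1142 higher and 1092 lower, and limma-voom 1154 higher and 758 lower. The share of all genes at an unadjusted p under 0.05 is not given here. No gene of the 10 was called with a fold change of at least 2, the minimum used in the study, against 1.39% of all genes in either direction. The median log2 fold change of the 10 genes was -0.095, against 0.033 over all genes. Of the 10 values 8 lay below 0, as did 7167 of the 15646 genes tested. Some of the 8 lay near 0, such as BCL2 at -0.011. In 3 genes (BCL2L1, BID and MCL1) every fluoxetine library lay below every control library, an order found in 14.4% of all genes, and in 0 genes every fluoxetine library lay above, against 17.5% of all genes. The remaining 7 genes had overlapping groups.

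**Figure D1:**
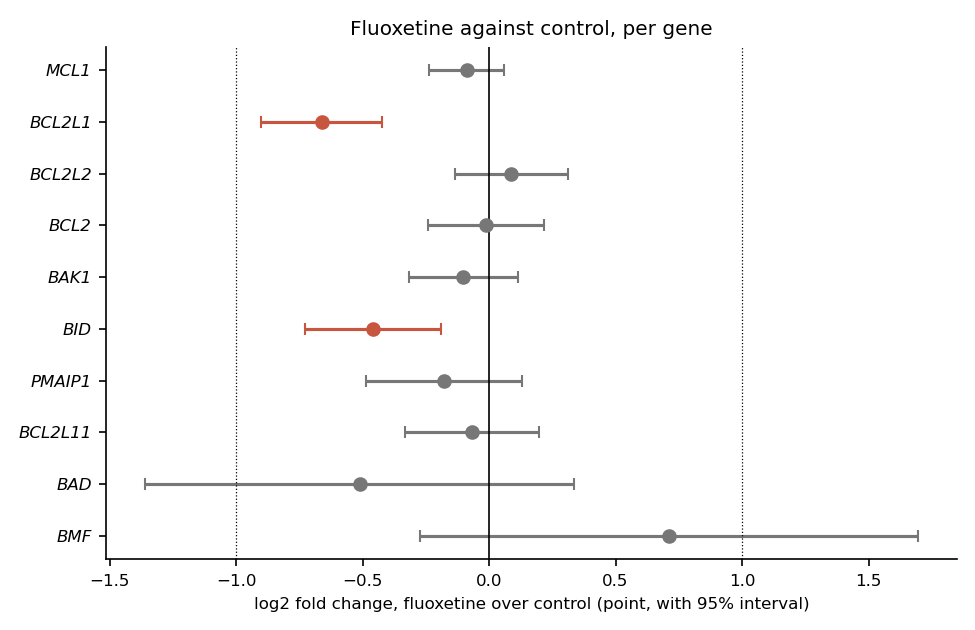
Log2 fold change of fluoxetine over control (horizontal axis) for each of the 10 genes, with the 95% interval from edgeR's fit; dotted lines mark a 2-fold change. BCL2L1 at -0.66 and BID at -0.46, in red, were called, and the widest intervals belong to BAD (-1.36 to 0.34) and BMF (-0.27 to 1.70), which had the fewest counts.

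BCL2L1 encodes BCL-XL, an anti-apoptotic protein of the mitochondrial membrane (ENSG00000171552, GRCh38 chromosome 20, 31664452 to 31723989, minus strand). Its level was 33.7, 31.9 and 29.1 CPM in control replicates 1 to 3 and 19.2, 22.1 and 18.5 CPM in fluoxetine replicates 1 to 3. The groups did not overlap, and the highest fluoxetine library, replicate 2, stood well below the lowest control library, replicate 3. The mean fell from 31.6 ± 2.35 to 19.9 ± 1.93 CPM (SD, n = 3). The fitted log2 fold change was -0.66 (SE 0.11), a change of -36.8% with a 95% interval of -46.5% to -25.3%, at an adjusted p of 0.00377 in edgeR's quasi-likelihood test. Each fluoxetine library held 58.5% to 70.1% of the control mean. Leaving out any single library kept the call, with log2 fold changes of -0.78 to -0.63 and adjusted p of 0.000694 to 0.0368 in edgeR's test.

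MCL1 encodes a short-lived anti-apoptotic protein that is broken down within hours when its synthesis stops (ENSG00000143384, chromosome 1, 150574551 to 150579738, minus strand). The level of MCL1 was 344, 351 and 376 CPM in control and 341, 331 and 336 CPM in fluoxetine replicates 1 to 3. Although the groups did not overlap, control replicate 1 and fluoxetine replicate 1 lay close together. The means were 357 ± 17.0 and 336 ± 5.06 CPM (SD, n = 3), and the log2 fold change of -0.088 (SE 0.067, 95% interval -0.24 to 0.060) did not pass edgeR's test (adjusted p = 0.435). With GC content and length trends removed from each library, an alternative chosen after seeing the data, MCL1 was called at -0.15 (adjusted p = 0.0367 in edgeR's test, against 0.0367 to 0.570 over its 15 alternatives).

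BCL2L2 encodes BCL-W, a further anti-apoptotic member (ENSG00000129473, chromosome 14, 23298790 to 23311759, plus strand). Its level was 33.6, 28.0 and 32.2 CPM in control and 33.0, 31.5 and 35.2 CPM in fluoxetine replicates 1 to 3. The groups overlapped, with the lowest value in control replicate 2 and the highest in fluoxetine replicate 3. Its log2 fold change was 0.087 (SE 0.10, 95% interval -0.14 to 0.31), with an adjusted p of 0.601 in edgeR's test.

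BCL2 encodes the founding anti-apoptotic member of the family (ENSG00000171791, chromosome 18, 63123346 to 63320128, minus strand). For BCL2 the control libraries held 23.0, 24.3 and 27.9 CPM and the fluoxetine libraries 25.7, 24.2 and 24.8 CPM. All fluoxetine values lay within the range of the control values. The log2 fold change of -0.011 (SE 0.10) had a 95% interval of -0.24 to 0.22, which leaves out a change as large as that of BCL2L1 (adjusted p = 0.967 in edgeR's test). Of the 4 anti-apoptotic genes 1 fell and 3 did not pass the test.

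**Figure D2:**
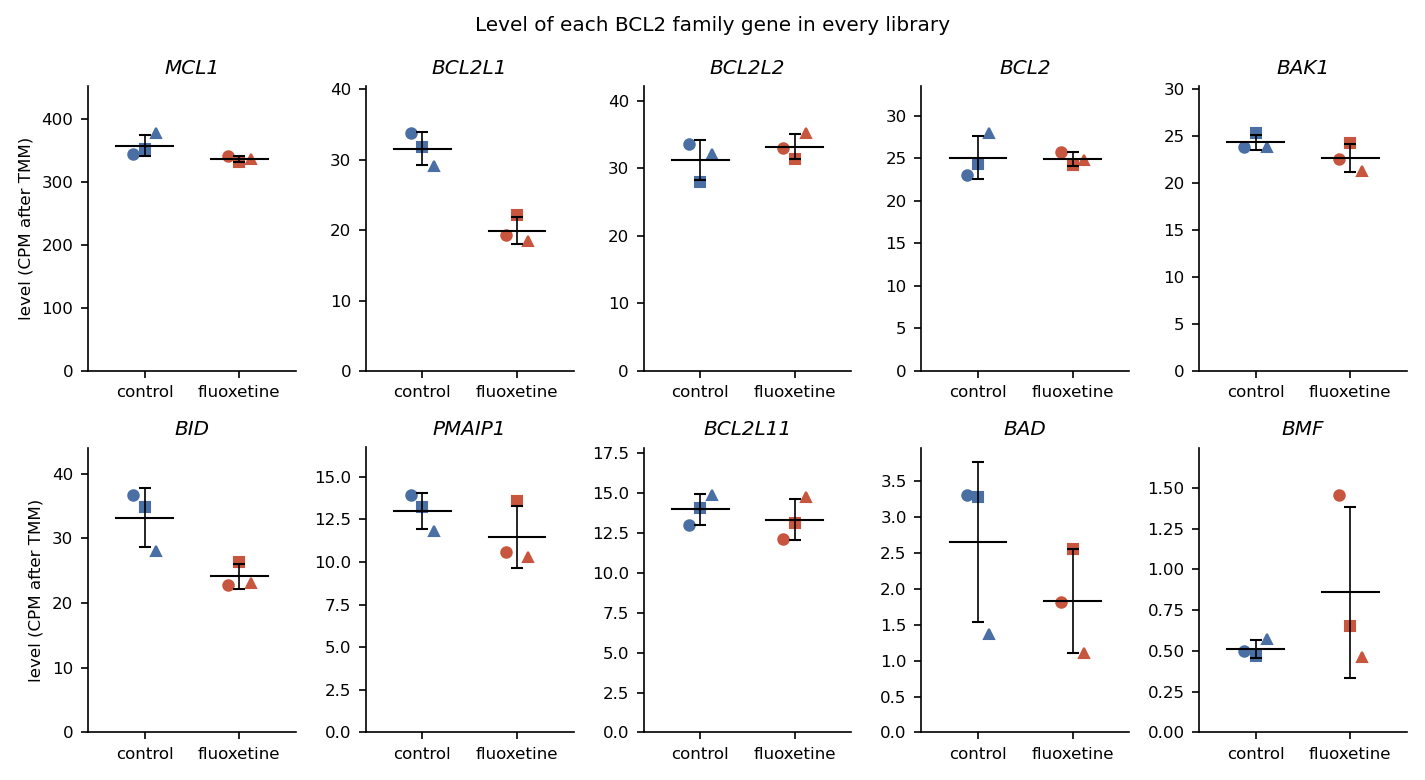
Level of each gene in CPM after TMM scaling (vertical axes start at 0 and differ between genes) in the control and fluoxetine libraries; circles, squares and triangles are replicates 1, 2 and 3, and lines with bars are the mean ± SD (n = 3). BCL2L1 shows the widest gap between the groups, 29.1 to 33.7 CPM against 18.5 to 22.1 CPM, while in BMF a single fluoxetine library at 1.46 CPM stands above the other 5 libraries.

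BAK1 encodes BAK, an effector that forms pores in the mitochondrial membrane (ENSG00000030110, chromosome 6, 33572547 to 33580293, minus strand). BAK1 stood at 23.9, 25.3 and 23.8 CPM in control and at 22.5, 24.2 and 21.3 CPM in fluoxetine replicates 1 to 3. The groups overlapped, since fluoxetine replicate 2 lay above control replicates 1 and 3. The log2 fold change was -0.10 (SE 0.097, 95% interval -0.32 to 0.11; adjusted p = 0.556 in edgeR's test). BAX, the other main effector and not among the 10 genes, had a mean of 50.3 ± 7.16 CPM in control and 41.9 ± 5.64 CPM in fluoxetine libraries (SD, n = 3), with overlapping groups and a log2 fold change of -0.26 (SE 0.13; adjusted p = 0.209 in edgeR's test). Without control replicate 3, the control library with the lowest BAX, the log2 fold change of BAX was -0.41 and was called at an adjusted p of 0.0157 in edgeR's test, against 0.0157 to 0.471 over its 15 alternatives.

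BID encodes a BH3-only protein that caspase-8 cleaves to its active form, which links death receptors to mitochondria (ENSG00000015475, chromosome 22, 17734138 to 17774770, minus strand). The level of BID was 36.7, 34.8 and 28.0 CPM in control and 22.8, 26.3 and 23.1 CPM in fluoxetine replicates 1 to 3. The groups did not overlap, but control replicate 3 lay nearer to the fluoxetine libraries than to the other control libraries. The mean fell from 33.2 ± 4.58 to 24.1 ± 1.95 CPM (SD, n = 3). The fitted log2 fold change was -0.46 (SE 0.12), a change of -27.2% with a 95% interval of -39.6% to -12.3%, at an adjusted p of 0.0333 in edgeR's quasi-likelihood test. This call was lost in edgeR's test without control replicate 1 (adjusted p = 0.0810), control replicate 2 (0.0977), fluoxetine replicate 1 (0.145) or fluoxetine replicate 3 (0.0971), although the log2 fold change stayed between -0.60 and -0.41 in all 6 fits that left out a library.

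PMAIP1 encodes NOXA, a BH3-only protein that binds MCL1 and is a target of ATF4 (ENSG00000141682, chromosome 18, 59899948 to 59904306, plus strand). PMAIP1 was measured at 13.9, 13.2 and 11.8 CPM in control and at 10.6, 13.6 and 10.3 CPM in fluoxetine replicates 1 to 3. Fluoxetine replicate 2 lay among the control libraries, while the other two were below them. The log2 fold change of -0.18 (SE 0.14, 95% interval -0.48 to 0.13) did not pass edgeR's test (adjusted p = 0.457). Without fluoxetine replicate 2 it was -0.35 and was not called either (adjusted p = 0.0932 in edgeR's test, against 0.0932 to 0.734 over its 15 alternatives).

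BCL2L11 encodes BIM, which binds all anti-apoptotic members and can activate the effectors (ENSG00000153094, chromosome 2, 111119378 to 111168447, plus strand). In control replicates 1 to 3 its level was 13.0, 14.1 and 14.9 CPM, and in fluoxetine replicates 1 to 3 it was 12.1, 13.1 and 14.7 CPM. The groups overlapped over most of their range, with a log2 fold change of -0.067 (SE 0.12, 95% interval -0.33 to 0.20; adjusted p = 0.750 in edgeR's test).

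BAD encodes a BH3-only protein that is held inactive by phosphorylation (ENSG00000002330, chromosome 11, 64269830 to 64284704, minus strand). It was read 73, 63 and 38 times in control and 30, 43 and 19 times in fluoxetine replicates 1 to 3, or 3.31, 3.28 and 1.37 CPM against 1.82, 2.56 and 1.11 CPM. In each group replicate 3 was the lowest, and the groups overlapped. The log2 fold change was -0.51 (SE 0.38, 95% interval -1.36 to 0.34; adjusted p = 0.429 in edgeR's test). The value depended on single libraries, at -0.34 without control replicate 1, -0.37 without control replicate 2, -0.27 without fluoxetine replicate 3 and -0.87 without fluoxetine replicate 2, none of them called. Without control replicate 3 it was -0.88 and was called (adjusted p = 0.0486 in edgeR's test, against 0.0486 to 0.762 over its 15 alternatives).

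BMF encodes a BH3-only protein tied to the cytoskeleton (ENSG00000104081, chromosome 15, 40087890 to 40108892, minus strand). It had 11, 9 and 16 counts in control and 24, 11 and 8 counts in fluoxetine replicates 1 to 3, or 0.499, 0.469 and 0.576 CPM against 1.46, 0.654 and 0.466 CPM. A single library, fluoxetine replicate 1, was high, and fluoxetine replicate 3 was the lowest of all 6. The log2 fold change of 0.71 (SE 0.44, 95% interval -0.27 to 1.70; adjusted p = 0.330 in edgeR's test) was 0.083 without fluoxetine replicate 1. Of the 5 BH3-only genes 1 fell and 4 did not pass the test.

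**Figure D3:**
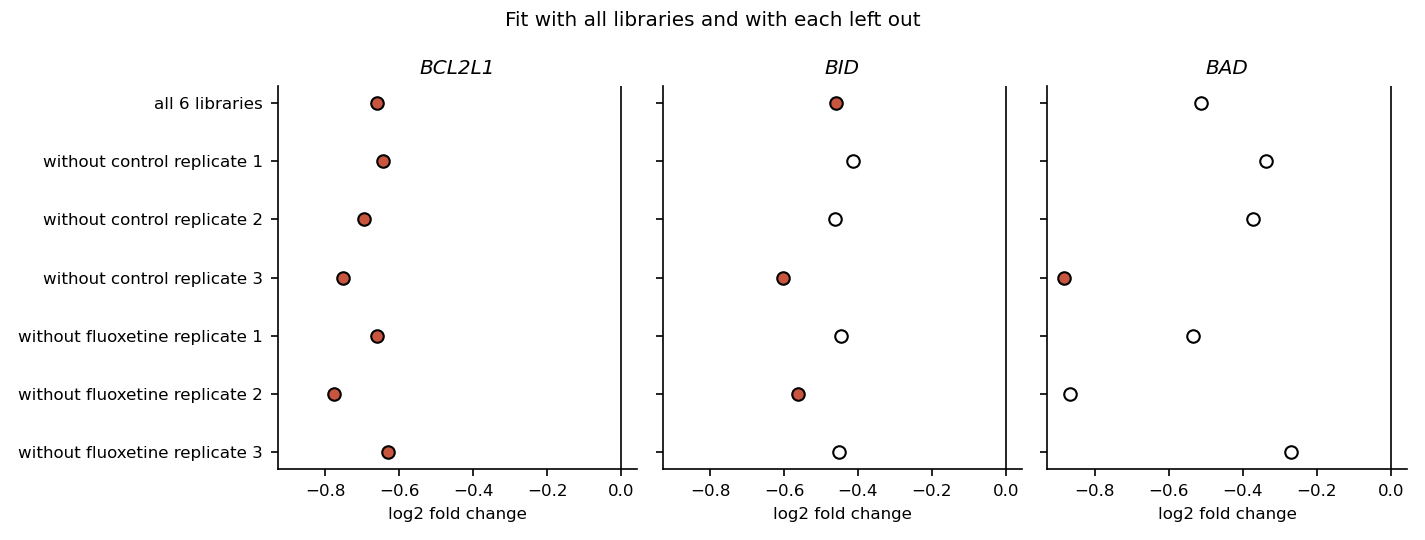
Log2 fold change of fluoxetine over control for BCL2L1, BID and BAD with all 6 libraries and with each library left out; filled points were called at an adjusted p under 0.05 in edgeR's test. BCL2L1 was called in all fits, BID was called with all 6 libraries and in 2 of the 6 fits that left out a library, and BAD in the fit without control replicate 3 alone.

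To set the genes side by side, each level in CPM was divided by the kilobases (kb) of exon of its gene. The exon bases of all annotated transcripts of a gene were counted together. In the control libraries MCL1 stood highest on this scale at 81.7 ± 3.88 CPM per kb, followed by BAK1 (11.0 ± 0.369) and BCL2L1 (9.53 ± 0.710; SD, n = 3). MCL1 thus stood apart from every other gene on this scale. Next came BCL2L2 (7.46 ± 0.696) and BID (7.46 ± 1.03), whose libraries overlapped, and then PMAIP1 (5.81 ± 0.481). BCL2 (1.95 to 2.37) and BCL2L11 (1.95 to 2.23) also overlapped each other, and BAD (1.55 ± 0.652) and BMF (0.0945 ± 0.0102) were lowest. All other neighbours in this order had ranges of CPM per kb that did not overlap in the control libraries. The order still depends on the length used. The exon bases and the longest transcript were 4446 and 2495 bases for BID and 3314 and 2610 bases for BCL2L1. Both were 2212 bases for BAK1, so the order of BAK1, BCL2L1 and BID is not firm.

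On the same per-length scale the 4 anti-apoptotic genes summed to 98.7 to 105 CPM per kb in control and 91.9 to 93.9 CPM per kb in fluoxetine libraries. MCL1 made up 79.6% to 82.0% of that sum in control and 82.3% to 83.1% in fluoxetine libraries. The share of BCL2L1 was 10.3%, 9.75% and 8.36% in control and 6.19%, 7.26% and 5.99% in fluoxetine replicates 1 to 3, and these groups did not overlap. BCL2L1 thus took a smaller part of the anti-apoptotic sum in every fluoxetine library. The ratio of BCL2L1 to BAK1 per kb was 0.944, 0.842 and 0.814 in control and 0.570, 0.610 and 0.580 in fluoxetine replicates 1 to 3, again without overlap. The BH3-only genes summed to 18.5, 17.9 and 14.7 CPM per kb in control and 13.0, 15.6 and 12.8 CPM per kb in fluoxetine replicates 1 to 3, with fluoxetine replicate 2 above control replicate 3. BID made up 42.8% to 44.7% of the BH3-only sum in control and 38.0% to 40.8% in fluoxetine libraries. These sums, shares and ratios are descriptions with no test, and they restate the differences of BCL2L1 and BID given above. Their sizes depend on the exon lengths used.

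**Figure D4:**
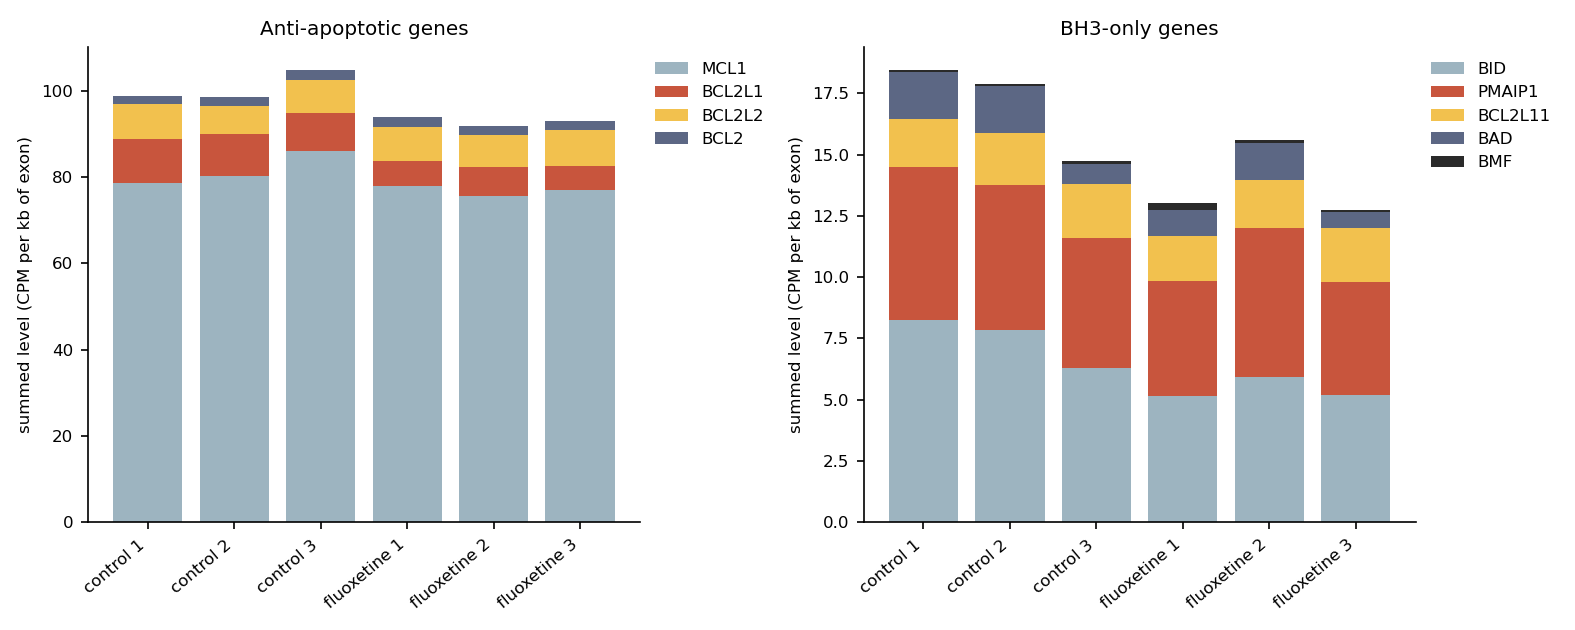
Stacked levels in CPM per kb of exon of the 4 anti-apoptotic genes (left) and of the 5 BH3-only genes (right) in each of the 6 libraries. MCL1 fills 79.6% to 83.1% of each anti-apoptotic bar, and the BCL2L1 segment is 8.77 to 10.2 CPM per kb in control and 5.57 to 6.68 CPM per kb in fluoxetine libraries.

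Several of the 10 genes share exon bases with a neighbour, and the sources used here do not say whether counting used the strand. BCL2L1 shared 1424 exon bases (43.0%) with the antisense gene ABALON, which had a mean of 1.5 counts per library against 528 for BCL2L1. BAD shared 404 bases (23.7%) with GPR137 on the other strand, which held 503, 481 and 409 counts in control and 296, 325 and 265 counts in fluoxetine replicates 1 to 3 and had, like BAD, its lowest CPM of each group in replicate 3. BCL2L11 shared 727 bases (10.9%) with MIR4435-2HG on the other strand, which had a mean of 915 counts, and BCL2L2 shared 813 bases (19.4%) with the readthrough gene BCL2L2-PABPN1 on its own strand, which had a mean of 14.5 counts. BCL2L2 also shared 206 bases with PPP1R3E on the other strand, which had a mean of 170 counts and rose (log2 fold change 0.55, SE 0.12, adjusted p = 0.0157 in edgeR's test). BMF shared 461 bases with BMF-AS1, which is not among the genes counted. BAK1 shared 91 bases with GGNBP1 on the other strand, which had a mean of 1.8 counts. Reads of a pair on opposite strands cannot be told apart without strand, and reads on the exons that BCL2L2 shares with BCL2L2-PABPN1 cannot be told apart by strand either. The part of shared bases in the values of BCL2L1, BAD, BCL2L2, BCL2L11, BAK1 and BMF was not tested. The low count of ABALON does not show how reads on the bases it shares with BCL2L1 were counted. BCL2, BID and PMAIP1 shared no exon base with another gene of GENCODE release 29.

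The other genes of the apoptosis pathway were taken from 7 lists of 73 genes, 65 of which were tested. Of these 65, 8 rose and 4 fell, with a median log2 fold change of 0.013 against 0.033 over all genes. As with the 10 genes, the shares over all genes tested were 7.76% higher and 5.32% lower.

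Among the other BCL2 family genes 7 were tested, 1 rose and 1 fell. BNIP3L, which encodes the mitophagy receptor NIX, rose from 20.6 ± 1.42 to 39.9 ± 0.429 CPM (SD, n = 3; log2 fold change 0.95, SE 0.093, adjusted p = 0.000156 in edgeR's test), without overlap. BCL2L12 fell from 22.7 ± 3.56 to 16.1 ± 1.98 CPM (-0.50, SE 0.14, adjusted p = 0.0423 in edgeR's test), a call lost with limma-voom, after thinning to equal depth, and without control replicate 1 or 2 or fluoxetine replicate 1 or 3, at adjusted p of 0.0532 to 0.165. BBC3, which encodes the BH3-only protein PUMA, had 1.41 ± 0.851 and 1.28 ± 0.505 CPM (SD, n = 3) and a log2 fold change of -0.10 (SE 0.50, adjusted p = 0.923 in edgeR's test).

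Downstream of the mitochondria, 9 genes of release and of the apoptosome were tested, and 1 fell by edgeR's test. In the same list 3 genes were called lower by DESeq2 (CYCS, HTRA2 and VDAC1) and 2 by limma-voom (CYCS and VDAC1). Over all 15646 genes, DESeq2 called 1092 lower and limma-voom 758. At an unadjusted p under 0.05 in edgeR's test 4 genes of the list were lower (CYCS, HTRA2, VDAC1 and VDAC3). The share of all genes at that threshold is not given here. HTRA2, VDAC1 and VDAC3 are named after their values were seen. CYCS, which encodes cytochrome c, went from 521 ± 28.6 to 435 ± 10.1 CPM (SD, n = 3; log2 fold change -0.26, SE 0.069, adjusted p = 0.0327 in edgeR's test), a call lost without control replicate 1 (0.0625) or fluoxetine replicate 1 or 3 (both 0.120). Of the 7 caspases none was called by edgeR, DESeq2 or limma-voom. At an unadjusted p under 0.05 in edgeR's test 2 were higher and 1 was lower, again without the share of all genes. Their log2 fold changes lay between -0.27 and 0.29. CASP8, the caspase that cleaves BID, had 0.22 (SE 0.078, adjusted p = 0.0862 in edgeR's test), a gene singled out after its values were seen.

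Of the 7 inhibitors of apoptosis, BIRC5 fell from 198 ± 11.9 to 134 ± 9.64 CPM (SD, n = 3; log2 fold change -0.56, SE 0.080, adjusted p = 0.00180 in edgeR's test). BIRC5 encodes survivin, which is made mainly in dividing cells. In the death receptor branch 1 of 8 genes rose. This was CFLAR, which encodes the caspase-8 inhibitor FLIP, at 0.34 (SE 0.089, adjusted p = 0.0336 in edgeR's test). The call of CFLAR was lost without control replicate 1 or 2 or fluoxetine replicate 1 or 3 (adjusted p of 0.131 to 0.199), and with GC content and length trends removed its log2 fold change was 0.092 (adjusted p = 0.344 in edgeR's test, against 0.00173 to 0.344 over its 15 alternatives). Of 13 kinases, ligases and binding partners of BCL2 proteins, USP9X rose by 0.50 (SE 0.10, adjusted p = 0.0107 in edgeR's test). USP9X encodes a deubiquitinase that stabilizes MCL1, and its call was lost without control replicate 2 (0.0731) or fluoxetine replicate 1 (0.0617) or 3 (0.0531). With GC content and length trends removed its log2 fold change was 0.27, still called.

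Of the 14 tested transcription factors held to regulate BCL2 family genes, in either direction, 5 were higher and 1 lower, against 7.76% and 5.32% of all genes. The list was written with earlier results of these data known, so this count is no test of the list. The study had already reported DDIT3 as higher in its own RNA sequencing. DDIT3, which encodes CHOP, rose from 3.73 ± 0.697 to 8.75 ± 0.821 CPM (SD, n = 3; log2 fold change 1.23, SE 0.17, adjusted p = 0.00142 in edgeR's test). ATF3, a stress-induced factor, rose by 0.94 (SE 0.13, adjusted p = 0.00158), FOXO4 by 1.05 (SE 0.21, adjusted p = 0.00934) and FOXO1 by 0.58 (SE 0.12, adjusted p = 0.0104) on the log2 scale in the same test. The FOXO4 call was lost without fluoxetine replicate 1 (adjusted p = 0.0644 in edgeR's test) and the FOXO1 call without control replicate 2 (0.0595). E2F1, a factor of the G1/S transition, fell by 0.52 on the log2 scale (SE 0.094, adjusted p = 0.00640 in edgeR's test).

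The study reported from western blots that ATF4 and CHOP protein rose with fluoxetine, and only RNA was analysed here. In RNA, ATF4 (-0.078, adjusted p = 0.674 in edgeR's test) and FOXO3 (0.44, 0.0679) were not called. The groups overlapped for ATF4, while all FOXO3 values of fluoxetine libraries (11.1 to 13.2 CPM) lay above those of the control libraries (7.71 to 10.1 CPM). FOXO3 was called without control replicate 3 (adjusted p = 0.0483 in edgeR's test) and with GC content and length trends removed (0.0383), against adjusted p of 0.00498 to 0.285 over its 15 alternatives. Among BH3-only genes held to be targets of these factors, PMAIP1, BCL2L11 and BBC3 had log2 fold changes of -0.18, -0.067 and -0.10. The BH3-only gene BMF had 0.71, and none of these values passed edgeR's test. The value of BBC3 was imprecise (SE 0.50). Whether the factors act on these genes was not tested.

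**Figure D5:**
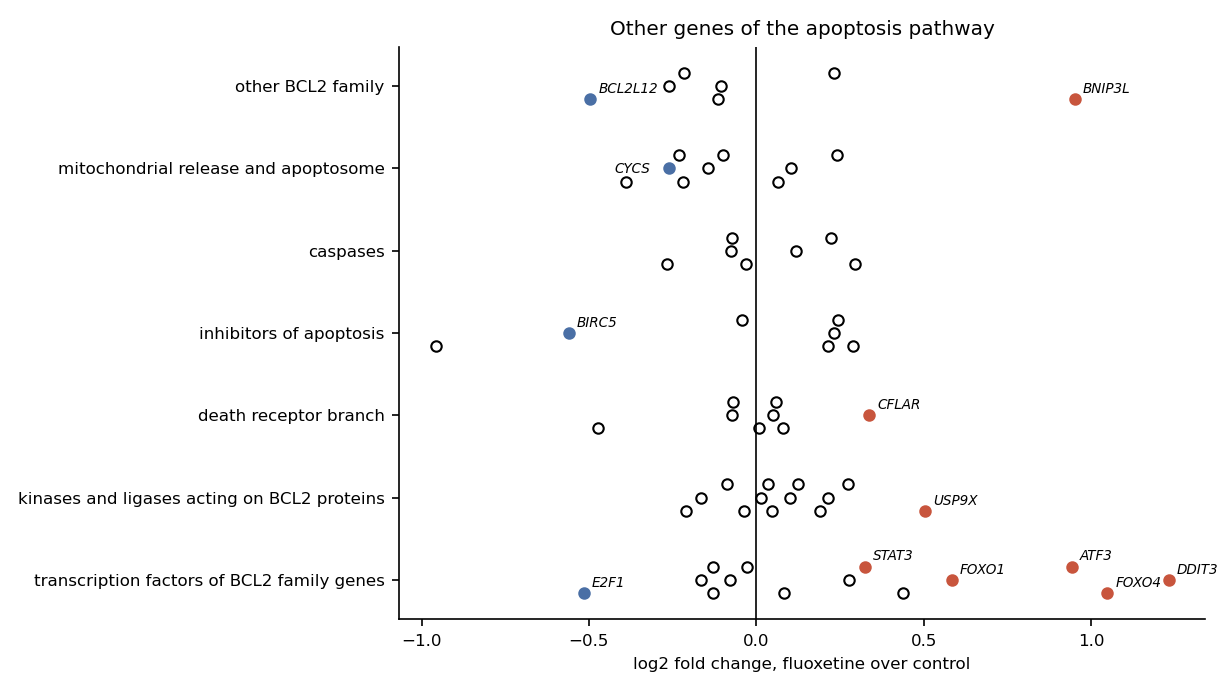
Log2 fold change of fluoxetine over control (horizontal axis) of the 65 tested genes in 7 lists of the apoptosis pathway; red points rose and blue points fell at an adjusted p under 0.05 in edgeR's test, and open points were not called. The transcription factor list holds 5 red points, with DDIT3 at 1.23, and the caspase list holds 0 filled points.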

How the data were processed

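RNA of H460 cells was sequenced as paired-end reads in 3 control and 3 fluoxetine libraries. The authors deposited raw counts of reads per gene, without normalization or pooling. The submitters' processing notes name fastp 0.20.0, HISAT2 2.1.0, HTSeq 0.10.0 and DESeq2 1.18.1 without their roles, and the annotation is not given in the sources used here. The table's columns from the authors' own comparison (fold change, raw and adjusted p-values) were not used. Gene positions and exon lengths were compared with GENCODE release 29, in which all 10 genes had the deposited span.

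Group and replicate came from the labels. The test was that of edgeR 4.0.16 in R 4.3.3 (glmQLFit, glmQLFTest, TMM, filterByExpr, no covariate), with Benjamini-Hochberg adjustment over 15646 genes. Named are the 10 genes, up to 5 called genes per list by smallest p-value, BAX, BBC3, DDIT3, ATF4, FOXO3, the marker lists and overlapping genes; 1 gene of this rule is not reported here. The genes and lists were chosen with earlier results of these data known. The alternatives were DESeq2 1.42.0, limma-voom (limma 3.58.1), RLE, library size only, no filter, at least 10 counts in every library, thinning to 16157507 counts, a replicate block and leaving out each library. Removing GC and length trends, known for 99.7% of genes, was chosen after seeing the data. An exact permutation test of 3 against 3 libraries cannot give a p below 0.1. Scripts were tested on simulated data. Protein and viability experiments were not analysed here.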

Additional observations from a re-analysis of the deposited data

How the results depend on the processing

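The fall of BCL2L1 kept its direction and its call under all 15 alternatives run, and that of BID kept its direction under all 15 and its call under 11. The number of the 10 genes called lower was 1 to 3 when a library was left out (at 1 without control replicate 1 or 2 or fluoxetine replicate 1 or 3, and at 3 without control replicate 3) and 0 with a minimum fold change of 2, while the number called higher was 0 in all 15 alternatives. Over all genes tested, leaving out a library gave 409 to 1627 called higher and 163 to 2006 called lower, the lowest of both without fluoxetine replicate 1 and the highest of both without control replicate 3. Without a filter on low counts 1516 genes were called lower, against 833. With GC content and length trends removed 1569 were called higher and 2275 lower, so that 40.8% of the calls were higher, against 59.3%; the cause was not tested.

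Directions turned where the value lay near 0 or counts were low. BCL2 was 0.010 with library size only, 0.0039 after thinning and -0.11 to 0.042 with a library left out (above 0 without control replicate 3), and BCL2L2 was -0.025 to 0.11 with a library left out (below 0 without control replicate 2). BBC3 was 0.12 with limma-voom, 0.065 with GC content and length trends removed, and between -0.60 (without control replicate 3) and 0.33 (without control replicate 1) with a library left out, with 0.17 without fluoxetine replicate 3. None of these values was called. BMF gave a value in 13 of the 15 alternatives. The replicate numbers were shared by the groups in the labels, but same-numbered libraries deviated together with correlations of 0.0297, 0.116 and 0.392, and control replicate 1 correlated best with fluoxetine replicate 2 (0.320), so the libraries were not treated as pairs; with a replicate block 2231 genes were called higher and 1787 lower, and 2 of the 10 genes lower, while BAX (adjusted p = 0.0280) and FOXO3 (0.00498) were called in that fit of edgeR. BMF and BAD had the fewest counts of the 10 genes, with means of 13.2 and 44.3 per library, and BAD also varied between libraries of a group, with a CV of 41.9% in control and 39.7% in fluoxetine libraries.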
